A study of Populus tomentosa with 12 samples.

Results

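The genes described here are 10 enzymes of the later monolignol pathway, from HCT to CAD, followed in the roots and shoots of a white poplar, Populus tomentosa, grown with and without iron. They were chosen by gene ID: HCT1 (Potri.003G183900), HCT6 (Potri.001G042900), C3H3 (Potri.006G033300), CSE1 (Potri.003G059200), CSE2 (Potri.001G175000), CCoAOMT1 (Potri.009G099800), CCoAOMT2 (Potri.001G304800), CCoAOMT3 (Potri.008G136600), CCR2 (Potri.003G181400) and CAD1 (Potri.009G095800). All 10 are among the 42950 gene IDs counted, and all 10 passed the filter on low counts in both tissues. The ID forms are those of Populus trichocarpa gene models. The names belong to the choice of genes and were not checked against an annotation.

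Plantlets were propagated in vitro with 1.5% sucrose and 1 mg/L of the auxin NAA, and then moved to a nutrient solution with 100 µM Fe, here called Fe-sufficient, or with 0 µM, here called Fe-deficient. Roots and shoots of each Fe supply gave 4 groups of 3 RNA-seq libraries, all labelled as seedling stage. The replicates are labelled as biological, with no word on the plants behind each library, so the p-values measure the spread between these libraries. Neither the length of the treatment nor the clone or cultivar is given in the sources used here. The labelled tissues were not checked against marker genes, because none were fixed for this report.

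Monolignols are the alcohols from which lignin, the stiffening polymer of xylem vessels, fibres and root barriers, is built. HCT joins p-coumaroyl-CoA to shikimate, C3H adds a hydroxyl group to that ester, and CSE splits the product to release caffeic acid. CCoAOMT methylates caffeoyl-CoA, CCR reduces the resulting CoA ester to an aldehyde, and CAD reduces the aldehyde to the alcohol. In poplar, several of these steps are encoded by more than one gene copy.

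Depth in genes was 8663523 to 10886552 reads per root library and 5360670 to 6149779 per shoot library. The 10 genes had 132 to 13590 counts each per root library and 60 to 1841 per shoot library. Tissue and read assignment could not be told apart, since 1.25% to 1.41% of the reads counted in a gene, in no gene or as ambiguous fell in no gene in roots, against 49.5% to 50.0% in shoots. Among shoots, Fe-sufficient replicate 2 lay far from the rest along principal component 1 of all genes. Levels below are CPM, counts per 1e6 reads in genes after TMM scaling over the 12 libraries. CPM is not divided by gene length, so differences in level between genes were not read as differences in transcript number. Sums over genes and shares of their counts, given below, carry the same limit.

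**Figure D1:**
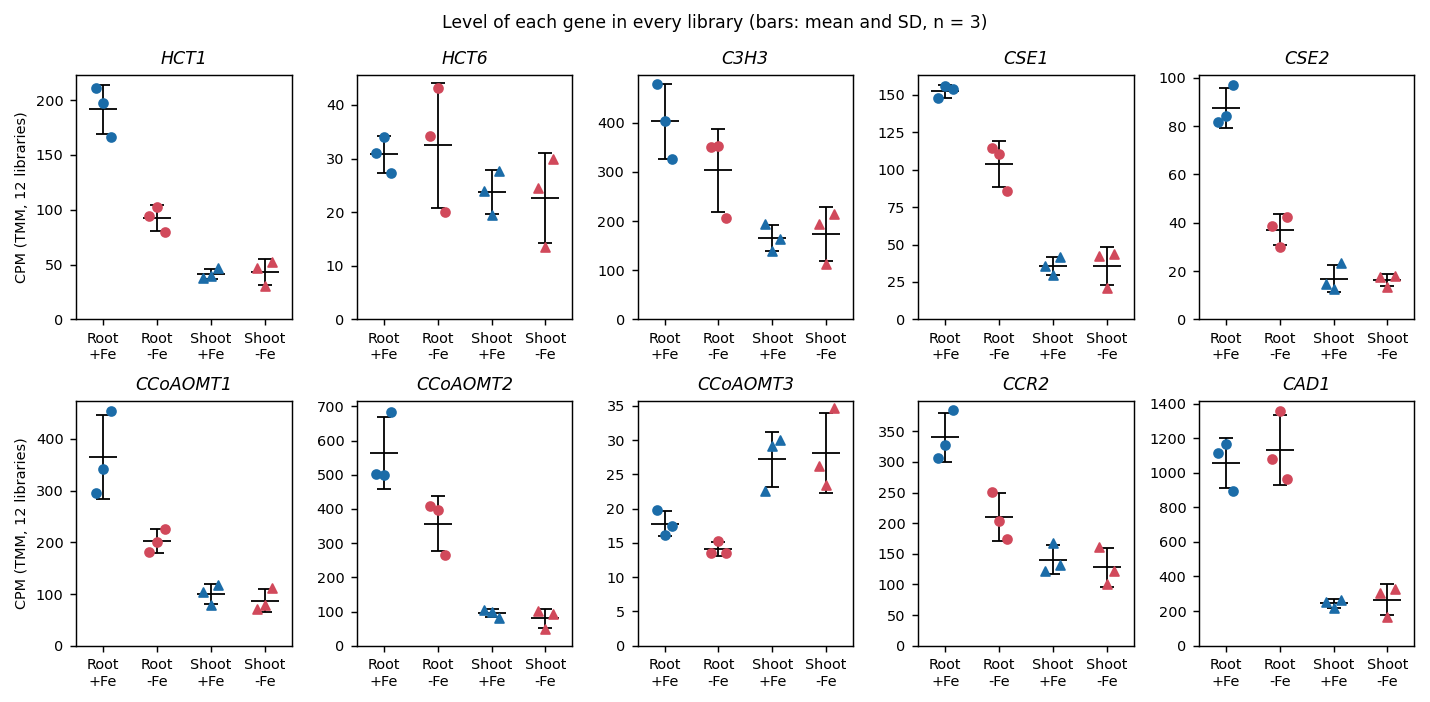
CPM (linear axis from 0, scaled separately in each panel) of the 10 genes in each of the 12 libraries, as circles for roots and triangles for shoots, blue with Fe and red without, with the mean and SD of 3 libraries. In HCT1 the Fe-deficient roots lie between 79.3 and 103 CPM and the Fe-sufficient roots between 167 and 211 CPM, while the shoot groups overlap in every panel.

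The first comparison asked how the pathway genes respond to Fe deficiency in roots. HCT1 and CSE2 fell to 47.7% and 42.0% of their Fe-sufficient levels, and no member rose. In 7 of the 10 genes every Fe-deficient root library lay below every Fe-sufficient one, which held for 10.6% of the 23785 genes tested. HCT6, C3H3 and CAD1 were the members whose groups overlapped. In no member did every Fe-deficient library lie above, against 10.8% of all genes. The adjusted p was under 0.05 for 2 of 10 members in the direction of a fall (edgeR's quasi-likelihood test, Benjamini-Hochberg over all genes tested), against 0.37% of all genes, and the unadjusted p was under 0.05 with a lower level for 7 of 10, against 8.27%. The median log2 fold change was -0.62 over the 10 members and 0.01 over all genes tested. In whole roots, fewer cells of a type and less RNA per cell cannot be told apart.

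The acyltransferase that opens this stretch of the pathway showed unlike copies. HCT1 stood at 211, 197 and 167 CPM in Fe-sufficient root libraries 1 to 3, and at 94.5, 103 and 79.3 CPM in the Fe-deficient ones. All 3 Fe-deficient libraries lay well under the lowest Fe-sufficient one. The log2 fold change was -1.07 ± 0.146 (SE; adjusted p by edgeR 0.0350). HCT6 stood at 31.0, 34.1 and 27.2 CPM with Fe and at 34.2, 43.2 and 20.1 CPM without. Its Fe-deficient libraries spread over both sides of the Fe-sufficient ones, with a log2 fold change of 0.06 ± 0.260 (SE; 95% interval -0.55 to 0.66). The summed level of HCT1 and HCT6 was 222 ± 25.1 CPM with Fe and 125 ± 23.5 without (SD, n = 3 each).

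C3H3, the hydroxylase that acts on the shikimate ester, did not pass the test. Its level was 480, 403 and 326 CPM with Fe and 349.6, 353 and 206 CPM without. Fe-deficient replicates 1 and 2 lay above the lowest Fe-sufficient library, and replicate 3 below it. The log2 fold change was -0.42 ± 0.236 (SE; adjusted p by edgeR 0.448).

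Both copies of CSE, the esterase that releases caffeic acid, were lower in every Fe-deficient root library than in any Fe-sufficient one. CSE2 stood at 81.6, 84.2 and 97.1 CPM with Fe and at 38.8, 30.0 and 42.5 CPM without. The groups were clear of each other, and the log2 fold change was -1.25 ± 0.160 (SE; adjusted p by edgeR 0.0311). CSE1 stood at 148, 156 and 154 CPM with Fe, the closest replicates of any member in that group, and at 115, 110.3 and 85.9 CPM without. Its log2 fold change of -0.57 ± 0.137 (SE) did not pass the test across all genes (adjusted p by edgeR 0.1103). Together CSE1 and CSE2 made up 240.0 ± 10.8 CPM with Fe and 141 ± 12.6 without (SD, n = 3 each).

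The 3 copies of CCoAOMT, the methyltransferase that acts on caffeoyl-CoA, had fitted values below 0, and none passed the test on filtered genes. CCoAOMT1 stood at 296, 343 and 454 CPM with Fe and at 181, 201 and 227 CPM without (log2 fold change -0.86 ± 0.183, SE; adjusted p by edgeR 0.0882, and 0.0481 with no filter on low counts). CCoAOMT2 stood at 503, 501 and 685 CPM with Fe and at 409.5, 397 and 264 CPM without (-0.67 ± 0.208, SE; adjusted p by edgeR 0.189). In both genes Fe-sufficient replicate 3 was the highest of the 6 root libraries. CCoAOMT3 stood at 19.8, 16.2 and 17.5 CPM with Fe and at 13.5, 15.3 and 13.5 CPM without, a narrow separation of the groups (-0.35 ± 0.147, SE; adjusted p by edgeR 0.315).

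The final reductions of the pathway differed in their fitted values. CCR2, which makes the aldehydes, stood at 307, 328 and 385 CPM with Fe and at 252, 203 and 174 CPM without (log2 fold change -0.71 ± 0.168, SE; adjusted p by edgeR 0.107). CAD1, which makes the alcohols, stood at 1111, 1167 and 895 CPM with Fe and at 1078, 1356 and 964 CPM without. The CAD1 groups overlapped almost fully, with a log2 fold change of 0.08 ± 0.175 (SE; 95% interval -0.32 to 0.49; adjusted p by edgeR 0.869). CAD1 held 27.9% to 48.2% of the counts of the 10 genes in root libraries. The summed level of all 10 genes was 3188, 3229 and 3207 CPM with Fe and 2566, 2812 and 2076 CPM without. Without CAD1 the other 9 summed to 2076, 2062 and 2312 CPM with Fe and 1487, 1456 and 1112 CPM without. The groups did not overlap in either sum.

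The size of the falls of HCT1 and CSE2 moved little when a library was left out, but their calls did not hold. The log2 fold change ranged from -1.16 to -0.98 for HCT1 and from -1.37 to -1.12 for CSE2. The call of HCT1 was lost without any 1 root library except Fe-sufficient replicate 3 (adjusted p by edgeR 0.0478 to 0.143), and that of CSE2 without any 1 of the 6 (0.0540 to 0.133). In the same fits the number of genes called in the whole table went from 134 to between 0 and 71, so the loss of calls was not particular to these genes. DESeq2 called 5 of the 10 genes lower and none higher, against 2.83% of all genes lower. These were HCT1, CSE1, CSE2, CCoAOMT1 and CCR2, with adjusted p by DESeq2 of 6e-07, 0.0192, 4.7e-08, 0.00259 and 0.0103.

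**Figure D2:**
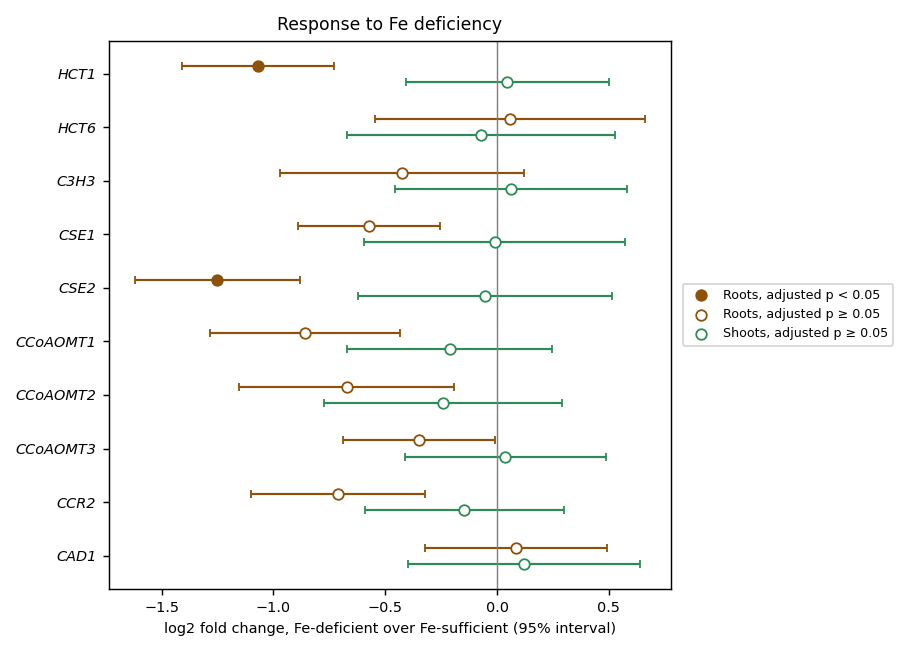
Fitted log2 fold change, Fe-deficient over Fe-sufficient, of the 10 genes in roots (brown) and shoots (green), with 95% intervals from edgeR; filled circles have an adjusted p under 0.05. HCT1 and CSE2 in roots are the filled points, at -1.07 and -1.25, and every shoot interval includes 0.

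In shoots none of the 10 genes passed the test, and the groups overlapped in every one of them. The count was 0 of 10 by edgeR's quasi-likelihood test, against 1.16% of the 21665 genes tested. It was also 0 of 10 at an unadjusted p under 0.05, against 5.15% of all genes lower and 3.94% higher, and 0 of 10 by DESeq2, against 1.27% lower and 1.11% higher. Groups that did not overlap were found in 7.19% of all genes with a lower and in 7.27% with a higher level without Fe. The fitted log2 fold changes lay between -0.24 (CCoAOMT2) and 0.12 (CAD1), with a median of -0.03 against -0.01 over all genes. The 95% intervals of the 10 genes lay between -0.77 and 0.64.

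The genes that fell in roots had overlapping groups in shoots. HCT1 stood at 38.1, 39.7 and 46.9 CPM with Fe and at 47.2, 30.1 and 52.1 CPM without, with Fe-deficient libraries on both sides of the Fe-sufficient ones (log2 fold change 0.05; 95% interval -0.41 to 0.50). CSE2 stood at 14.8, 12.5 and 23.3 CPM with Fe and at 17.4, 13.5 and 18.0 CPM without, again with full overlap (-0.05; 95% interval -0.62 to 0.51). CAD1 stood at 250.3, 217 and 264 CPM with Fe and at 303, 167 and 331 CPM without, the Fe-deficient group holding both the highest and the lowest value.

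One shoot library carried much of the spread. Fe-deficient replicate 2 had the lowest value of its group in 9 of the 10 genes, CCoAOMT1 being the exception, and the lowest of all 6 shoot libraries in 7. The summed level of the 10 genes was 607 CPM in that library, and 988 and 1050 CPM in the other two of its group. In the Fe-sufficient shoots it was 908, 834 and 930.3 CPM. Without Fe-deficient replicate 2, or without the library that stands apart along component 1, 0 of 10 genes were called by edgeR. The number of genes called in the whole table was 72 and 571 in these fits, against 252 with all 6 libraries. Among the roots, Fe-deficient replicate 3 had the lowest value of its group in 7 of the 10 genes and the highest in 2, CSE2 and CCoAOMT1. How often these libraries were lowest over all genes was not counted. Whether their low values are particular to the 10 genes was therefore not tested.

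**Figure D3:**
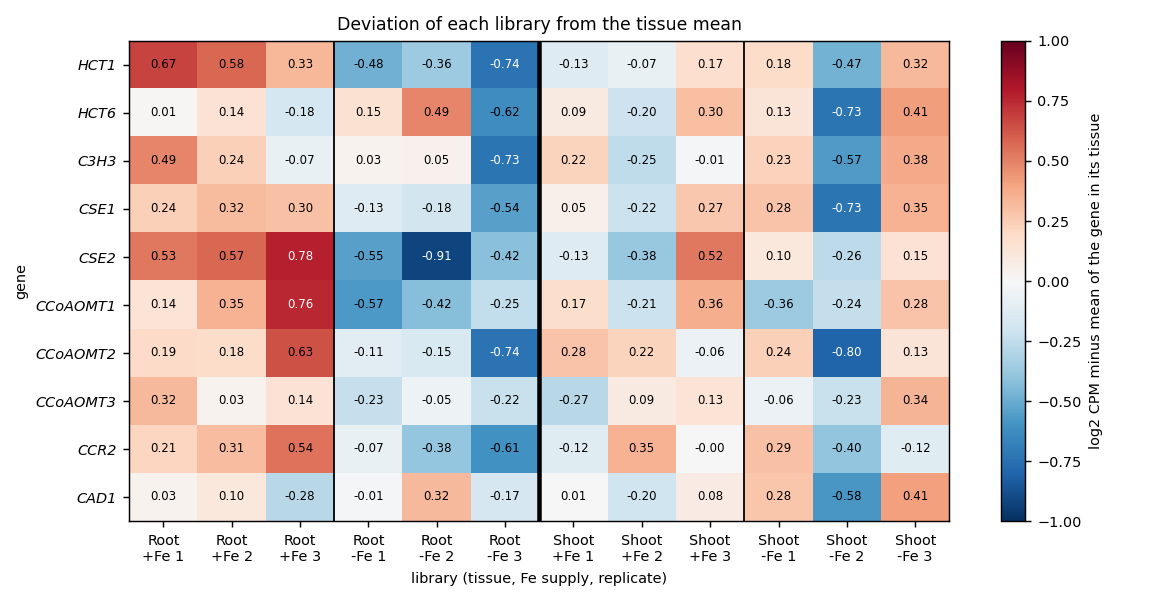
Log2 CPM of each gene (rows) in each library (columns) minus the mean of that gene over the 6 libraries of its tissue; red is above the mean and blue below. The HCT1 and CSE2 rows are above 0 in all 3 Fe-sufficient roots and below 0 in all 3 Fe-deficient roots, and Fe-deficient shoot replicate 2 is below 0 in all 10 rows.

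Whether the root and shoot responses differ was tested directly, as the root response minus the shoot response in 1 fit of all 12 libraries. By edgeR's quasi-likelihood test 0 of the 10 genes passed, against 1.25% of the 25046 genes tested. At an unadjusted p under 0.05 there were 2, both with the lower response in roots, against 5.9% of all genes in that direction. These were HCT1, with a difference of -1.11 ± 0.273 on the log2 scale (SE; adjusted p by edgeR 0.0722), and CSE2, with -1.19 ± 0.306 (SE; adjusted p by edgeR 0.0870). DESeq2 called the same 2 genes (adjusted p 0.0142 and 0.0163), against 1.51% of all genes in that direction. By edgeR, HCT1 also passed without Fe-deficient shoot replicate 2 (-1.30; adjusted p 0.0285) and CSE2 without Fe-sufficient shoot replicate 3 (-1.50; adjusted p 0.0248). Each passed in only that 1 of the 12 fits with a library left out. In the fits that did not pass, adjusted p by edgeR reached 0.192 for HCT1 and 0.202 for CSE2. CAD1 had the difference nearest to 0, -0.03 ± 0.328 (SE).

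Roots and shoots were then compared at each Fe supply, with the reservation on read assignment given above. With Fe, 8 of the 10 genes were higher in roots, against 32.7% of all genes tested, and CCoAOMT3 was lower, against 31.2% (adjusted p under 0.05 by edgeR). Without Fe the counts were again 8 higher, against 31.6%, and CCoAOMT3 lower, against 31.3%. HCT6 was the member called at neither supply. The median log2 difference, root minus shoot, was 1.98 with Fe and 1.14 without, against 0.06 and 0.04 over all genes. Together the 10 genes took 0.366% ± 0.00864 of gene counts in Fe-sufficient roots, 0.287% ± 0.0387 in Fe-deficient roots, and in shoots 0.0723% ± 0.00502 with Fe and 0.0813% ± 0.0203 without (SD, n = 3 each).

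With Fe the largest difference was that of CCoAOMT2, whose level was 563 ± 106 CPM in roots and 94.9 ± 11.6 CPM in shoots (SD, n = 3 each; 5.93-fold). CSE2 and HCT1 were 5.20-fold and 4.61-fold higher in roots with Fe, and 2.28-fold and 2.14-fold higher without. For CAD1 the fold was nearly the same at both supplies, 4.34 with Fe and 4.25 without. CSE1 was 4.28-fold and CCoAOMT1 3.62-fold higher in roots with Fe, and C3H3 and CCR2 were 2.43-fold and 2.42-fold higher. The change of these folds with Fe supply is the difference between responses tested above, in which no member passed by edgeR.

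In HCT1 and CSE2, Fe-sufficient roots stood above Fe-deficient roots, and both stood above the shoots. CSE1, CCoAOMT1, CCoAOMT2 and CCR2 had the same order, also without overlap, though their falls in roots were not called in the main edgeR fit. HCT1 was highest in Fe-sufficient roots (191 ± 22.6 CPM), then Fe-deficient roots (92.2 ± 11.9), then shoots without Fe (43.1 ± 11.6) and with Fe (41.5 ± 4.70; SD, n = 3 each). The shoot groups were the neighbours that did not differ beyond their spread. CSE2 stood at 87.6 ± 8.29 CPM in Fe-sufficient roots and 37.1 ± 6.38 in Fe-deficient roots. Its shoots stood at 16.9 ± 5.72 with Fe and 16.3 ± 2.41 without, again within their spread (SD, n = 3 each). For CAD1 neither the root groups (1058 ± 144 and 1133 ± 202 CPM with and without Fe) nor the shoot groups (244 ± 24.0 and 267 ± 87.7) differed beyond their spread (SD, n = 3 each). In C3H3, Fe-deficient roots overlapped with the shoots without Fe, where 1 root library at 206 CPM lay below 1 shoot library at 215 CPM.

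CCoAOMT3 had the tissues in the opposite order. It stood at 22.6, 29.1 and 30.0 CPM in Fe-sufficient shoots and at 26.2, 23.4 and 34.7 CPM in Fe-deficient shoots. Every shoot library lay above every root library. The log2 difference, root minus shoot, was -0.61 ± 0.183 with Fe and -0.99 ± 0.183 without (SE; adjusted p by edgeR 0.00940 and 3.2e-04). HCT6 had overlapping tissues, with 30.8 ± 3.41 CPM in Fe-sufficient roots and 23.7 ± 4.13 in Fe-sufficient shoots (SD, n = 3 each).

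These tissue differences depend in part on scaling. With library size alone in place of TMM, the median log2 difference of all genes moved from 0.06 to 0.55 with Fe and from 0.04 to 0.37 without. Genes called higher in roots were then 48.1% of all genes with Fe and 41.9% without, and genes called lower 22.1% and 24.4%. HCT6 was then called higher in roots at both supplies (adjusted p by edgeR 0.0150 and 0.0183), and CCoAOMT3 was not called with Fe (-0.13; adjusted p by edgeR 0.555). Without Fe, the call of C3H3 was lost when root Fe-deficient replicates 1 or 2 or shoot Fe-deficient replicate 2 was left out (adjusted p by edgeR 0.0581, 0.0582 and 0.0904), and that of CCR2 without the last of these (0.0504). HCT6 without Fe was called higher in roots when root Fe-deficient replicate 3 was left out (adjusted p by edgeR 0.0234).

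**Figure D4:**
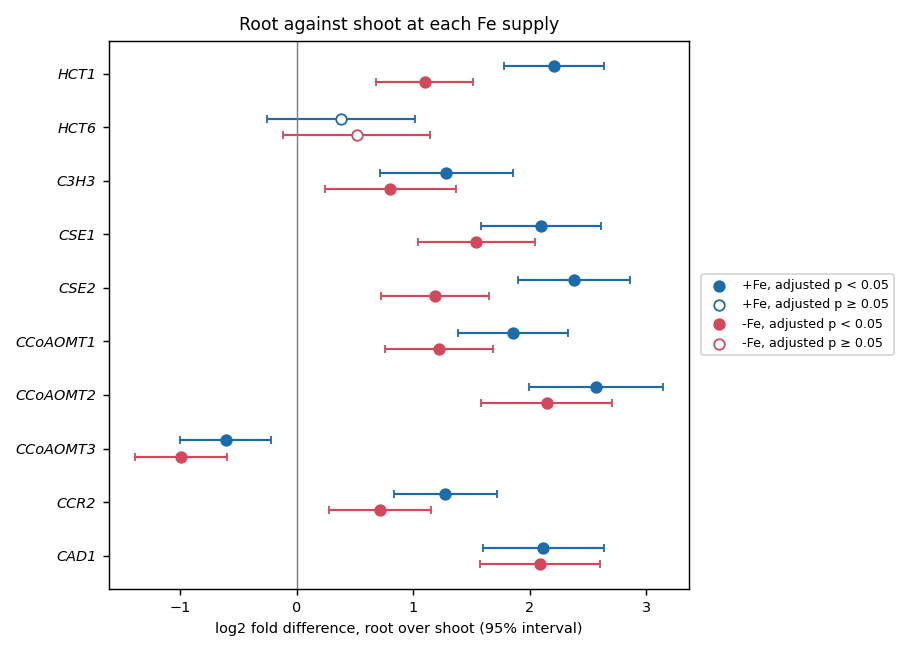
Fitted log2 fold difference, root over shoot, of the 10 genes with Fe (blue) and without Fe (red), with 95% intervals from edgeR; filled circles have an adjusted p under 0.05. CCoAOMT3 lies below 0 at both supplies, HCT6 is open at both, and the other 8 genes lie above 0, with CSE2 at 2.38 with Fe and 1.19 without.

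The ratio of 2 copies within a library does not depend on how libraries are scaled. In Fe-sufficient roots HCT1 had 5.78 to 6.78 times the counts of HCT6, and in Fe-deficient roots 2.38 to 3.94 times. CSE1 had 1.58 to 1.85 times the counts of CSE2 in Fe-sufficient roots and 2.02 to 3.67 times in Fe-deficient roots. Neither pair of root groups overlapped. The log2 ratio changed by -1.07 for HCT1 over HCT6 and by 0.68 for CSE1 over CSE2, each with a two-sided exact permutation p of 0.1, the smallest that 3 against 3 libraries allow (0.3 adjusted over 6 tests). Differences in gene length cancel in these changes but not in the ratios themselves.

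The other copy ratios overlapped between Fe supplies. CCoAOMT1 over CCoAOMT2 was 0.588 to 0.684 in roots with Fe and 0.442 to 0.859 in roots without (exact permutation p 0.6). In shoots HCT1 over HCT6 was 1.59 to 2.03 with Fe and 1.73 to 2.21 without (exact permutation p 0.4), and the exact permutation p was 1 for CSE and 0.9 for CCoAOMT. Whether near-identical copies shared or lost reads was not analysed here.

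**Figure D5:**
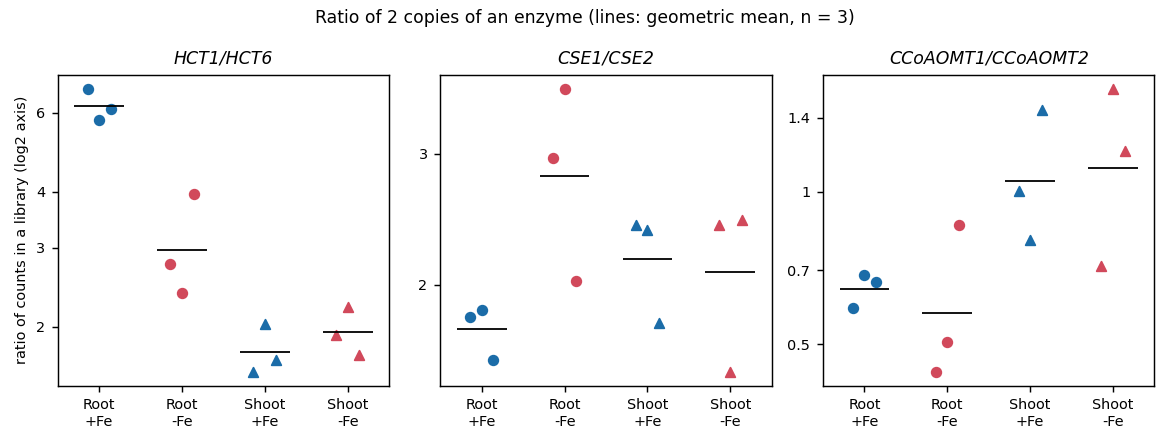
Ratio of the counts of 2 copies of an enzyme in each library (log2 axis), by tissue and Fe supply, with the geometric mean of 3 libraries as a line; circles are roots and triangles shoots, blue with Fe and red without. HCT1 over HCT6 is above 5.78 in every Fe-sufficient root and at most 3.94 in Fe-deficient roots, and CSE1 over CSE2 moves the other way.

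A list of 12 further IDs covered the other steps of the pathway: the entry enzymes PAL, C4H and 4CL, and the enzymes of syringyl units. The list came from general knowledge of P. trichocarpa and no table used here annotates the IDs, so they are counted here and given no gene names. It was chosen with earlier results of these data known, so its counts are descriptions and no independent check. In roots 2 of the 12 fell and none rose by edgeR's quasi-likelihood test, against 0.37% and 0.193% of all genes. All 12 had a fitted log2 fold change below 0, as did 8 of the 10 members and 48.7% of all genes, and their median was -0.32. In shoots 11 of the 12 passed the filter on low counts, 0 of 11 were called by edgeR, against 1.16% of all genes, and the median was -0.19. For the difference between tissues 0 of 12 were called by edgeR, against 1.25% of all genes. At such low shares, counts of 0 cannot set these IDs apart from other genes. Whether the 10 genes and the 12 responded differently was not tested.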

How the data were processed

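The authors deposited raw counts of reads per gene ID, 1 file per library, with no normalisation. The tools were edgeR 3.16.5, HTSeq 2.2.1, HISAT2 2.0.5 and Trimmomatic 0.36, per the submitters' processing notes. No source used here gives settings, genome build, annotation or strand, so reads from overlapping or antisense genes cannot be told apart. The 5 closing rows of reads given to no gene held 58.3% to 64.0% of listed reads in roots and 72.6% to 73.1% in shoots and stayed out of library sizes and tests. Groups follow the labels' characteristics, and root replicates are numbered in accession order. Shoot titles (CK with Fe, WT without) are not explained, so shoot directions rest on the characteristics.

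Each tissue was tested on its 6 libraries with edgeR 4.0.16 (R 4.3.3; quasi-likelihood, robust, TMM, filterByExpr with a minimum count of 10, Benjamini-Hochberg over all genes tested, threshold 0.05), and the other comparisons as contrasts of 4 groups in 12 libraries. SE is the size of the log2 fold change over the root of its F. Code was tested on simulated data. The 10 genes, the list of 12 and the tests were chosen with earlier results of these data known. All 10 genes are named with every library's value where a result turns on them. Alternatives were DESeq2 1.42.0, RLE, other filters, 0.01 as threshold, other sets of libraries, each library left out and a replicate block. Library size alone was added after seeing the data. The reference table (P. tomentosa, assembly PTv2, 60139 genes) matched none of the file IDs, so no sequence or coordinate is given.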

Additional observations from a re-analysis of the deposited data

How the results depend on the processing

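Among root responses to Fe deficiency, edgeR called 2 of the 10 genes (134 of all genes), DESeq2 5 (1109), edgeR with no filter on low counts 3 (357, the third member being CCoAOMT1) and edgeR at an adjusted p under 0.01 0 (0; 7 members had an unadjusted p under 0.05). When 1 library was left out, 0 to 1 were called (0 to 71 of all genes), so the loss was spread over the whole table. The 8 genes with a root log2 fold change below 0 stayed below 0 under all 13 alternatives. Among these, the 0.01 threshold reuses the main fit and cannot change a sign. For the difference between tissues the count of 0 (313 of all genes) became 2 with DESeq2 (855), 1 with library size alone (322) and 0 to 1 when 1 library was left out (104 to 264). In shoots it was 0 under all 14 alternatives (64 to 571 of all genes, against 252), though the stricter threshold could not add a call. A replicate block on the number in shoot titles also gave 0 of 10 calls. The labels do not say that it marks a pair, and deviations of same-numbered shoots had correlations of -0.159, 0.00263 and 0.124. With 3 libraries per group, such correlations cannot decide whether same-numbered shoots belong together. Of 3 Fe-sufficient shoots, only replicate 3 correlated best with its own number. Replicate 1 correlated best with Fe-deficient replicate 3 (0.167), and replicate 2 with Fe-deficient replicate 1 (0.2005).

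Library size alone moved the median log2 fold change of all genes to 0.19 in shoots and -0.16 for the difference, and made the shoot values of HCT6, CSE1, CSE2 and CCR2 0.12, 0.18, 0.14 and 0.042, and the HCT6 difference -0.026. All calls over all genes then split into 1.12% higher and 0.291% lower in shoots (0.632% and 0.531% with TMM), and 0.359% and 0.926% for the difference (0.655% and 0.595%). With 1 library left out, uncalled values that crossed 0 ranged as follows. In roots these were HCT6, -0.20 to 0.31, and CAD1, -0.060 to 0.18. In shoots the range was -0.11 to 0.25 for HCT1, -0.32 to 0.19 for HCT6, -0.12 to 0.30 for C3H3, -0.19 to 0.26 for CSE1 and -0.23 to 0.25 for CSE2. It was -0.42 to 0.016 for CCoAOMT2, -0.14 to 0.15 for CCoAOMT3, -0.35 to 0.0019 for CCR2 and -0.066 to 0.37 for CAD1. The difference ranged from -0.12 to 0.39 for HCT6 and from -0.27 to 0.15 for CAD1. The change in log2 copy ratio ranged from -0.45 to 0.033 for CCoAOMT in roots, from -0.18 to 0.40 for CCoAOMT in shoots and from -0.20 to 0.16 for CSE in shoots. The cause of these changes was not tested.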

Other observations

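The genes whose pattern was most like that of the 10 were sought by ranking. After the mean of each tissue was subtracted from log2 CPM, the 10 genes were standardised and averaged into 1 profile over the 12 libraries, and 11646 other genes with a mean of at least 10 CPM in each tissue were ranked by Pearson's r with it. The highest values were those of Potri.003G188500 (r = 0.95, n = 12 libraries) and Potri.014G196200 (r = 0.94). The first is among the 12 further pathway IDs counted in the report, and the second has no annotation here. All genes of a library share its depth and scaling, and the top of a ranking is high by selection, so these values are descriptions. In roots the log2 fold change of Potri.003G188500 was -0.99 ± 0.189 (SE; adjusted p by edgeR 0.0674), and that of Potri.014G196200 was -0.33 ± 0.170 (SE; adjusted p by edgeR 0.418). Of the 10 members themselves, CSE1 followed the profile most closely (r = 0.97) and CAD1 least (r = 0.56), though each is part of the profile.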
